A study of Mus musculus with 6 samples.

Results

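The distal intergenic ATF4 peaks are the listed peaks that lay in no gene and more than 50 kb from the nearest annotated transcription start site (TSS), outside annotated repeats and CpG islands. They were chosen by their annotation alone, without their score, and numbered 2103 of the 17462 peaks in 4 lists. ATF4 binding had been mapped by ChIP-seq (sequencing of DNA recovered with an antibody to ATF4) in primary mouse embryonic fibroblasts (MEFs) of the strain 129S6/SvEvTac, either wild type (WT) or GCN2-/- (GCN2 KO). Both genotypes were kept for 24 h in DMEM with leucine (+Leu) or without leucine (-Leu). A single library was sequenced per condition, from the pooled chromatin of 2 experiments, so no comparison of conditions has a replicate check and no p-value is given. Both -Leu libraries had been called against the +Leu input of their genotype, and the input libraries were not analysed here.

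ATF4 is a basic leucine zipper transcription factor whose translation rises when the kinase GCN2 senses uncharged tRNA and phosphorylates eIF2α. It binds DNA as a dimer with partners such as C/EBP proteins, at a composite element (CARE) that joins a C/EBP half-site to an ATF half-site. Well-known ATF4 targets among amino acid synthesis and transport genes carry the element near their promoter. Intergenic DNA far from any TSS can hold enhancers, which act over long distances, often past the nearest gene, so the gene named beside a region below is only the nearest in the annotation and not a known target. The peak lists hold no expression values, so the cell type could not be checked against marker genes.

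Of the 52 WT -Leu members that held the composite element TGATGCAA within 50 bp of the peak center, 12 also had a WT +Leu peak. In 7 of these 12 the element also lay within 50 bp of the WT +Leu center. The sequences of these 12 regions are shown first, in order of their WT -Leu score, because the score at the same element can be set side by side in both leucine states. Each line gives the element in capitals with 30 bases to either side, read 5′ to 3′ on the strand of the element, from the RefSeq GRCm38 genome, the assembly that mm10 names.
Acvr2a (chr2:48520045-48520112, - strand): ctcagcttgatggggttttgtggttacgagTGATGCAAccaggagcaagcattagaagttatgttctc
H2afy3 (chr15:62569575-62569642, + strand): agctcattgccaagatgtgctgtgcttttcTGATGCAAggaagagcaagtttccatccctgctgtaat
Klf4 (chr4:55730462-55730529, - strand): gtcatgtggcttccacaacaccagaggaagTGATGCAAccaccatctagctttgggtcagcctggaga
Ddx3x (chrX:13347511-13347578, + strand): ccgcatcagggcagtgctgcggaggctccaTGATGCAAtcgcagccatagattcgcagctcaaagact
Mir302b (chr3:127409086-127409153, - strand): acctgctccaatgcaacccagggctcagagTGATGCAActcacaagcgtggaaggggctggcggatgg
Mark1 (chr1:185064804-185064871, + strand): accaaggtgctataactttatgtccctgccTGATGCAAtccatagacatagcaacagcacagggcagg
1600014C23Rik (chr17:45873584-45873651, + strand): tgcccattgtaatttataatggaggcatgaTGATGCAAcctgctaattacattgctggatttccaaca
BC017158 (chr7:128357423-128357490, + strand): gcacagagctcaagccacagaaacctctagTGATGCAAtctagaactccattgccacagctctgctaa
Antxr2 (chr5:97834896-97834963, + strand): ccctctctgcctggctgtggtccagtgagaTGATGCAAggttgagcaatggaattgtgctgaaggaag
A1bg (chr15:61309056-61309123, + strand): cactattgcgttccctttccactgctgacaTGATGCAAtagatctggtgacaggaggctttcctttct
Gm19276 (chr15:10890334-10890401, - strand): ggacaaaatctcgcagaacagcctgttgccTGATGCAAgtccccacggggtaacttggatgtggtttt
Mir8118 (chr4:33587853-33587920, + strand): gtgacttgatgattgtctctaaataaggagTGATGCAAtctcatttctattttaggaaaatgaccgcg
The element began at the same place in each line by construction, and the bases around it were not alike. Among the 55 matches to TGATGCAA that lay within 50 bp of a center in WT -Leu members, the base just before the element was C in 43.6%, G in 30.9%, A in 21.8% and T in 3.64%. The base just after it was T in 38.2% and C in 32.7%.

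The strong regions near Mtx2, Tnp1 and Nfib held another base at position 6 of the element in its place, and are shown in the same way with that 8-base match in capitals. The region near Gm13498, which did hold TGATGCAA, is shown with them because it was the strongest member listed in 1 library only.
Mtx2 (chr2:74965664-74965731, - strand): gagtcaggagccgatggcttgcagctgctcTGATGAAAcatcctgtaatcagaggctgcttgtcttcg
Tnp1 (chr1:72963677-72963744, - strand): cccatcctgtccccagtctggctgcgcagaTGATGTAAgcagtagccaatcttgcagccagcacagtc
Nfib (chr4:82288192-82288259, - strand): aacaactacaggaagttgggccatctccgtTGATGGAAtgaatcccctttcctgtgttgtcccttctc
Gm13498 (chr2:50814206-50814273, + strand): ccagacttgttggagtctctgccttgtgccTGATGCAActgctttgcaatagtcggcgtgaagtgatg
The whole 300-base window is shown for the member with the highest score of all, near Mtx2, and for the one member that held the element and was listed in all 4 libraries, near Antxr2. Capitals mark matches on either strand to TGATGNAA (N is any base) and to TGANTCA. The latter is a loose form of the AP-1 site TGACTCA, which Fos and Jun dimers bind.
Mtx2 (chr2:74965555-74965854, + strand): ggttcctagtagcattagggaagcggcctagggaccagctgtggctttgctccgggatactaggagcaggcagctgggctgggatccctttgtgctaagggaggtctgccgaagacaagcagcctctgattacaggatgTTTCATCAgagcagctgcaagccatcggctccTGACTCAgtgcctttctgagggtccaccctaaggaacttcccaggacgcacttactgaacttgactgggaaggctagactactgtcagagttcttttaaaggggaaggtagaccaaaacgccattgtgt
Antxr2 (chr5:97834776-97835075, + strand): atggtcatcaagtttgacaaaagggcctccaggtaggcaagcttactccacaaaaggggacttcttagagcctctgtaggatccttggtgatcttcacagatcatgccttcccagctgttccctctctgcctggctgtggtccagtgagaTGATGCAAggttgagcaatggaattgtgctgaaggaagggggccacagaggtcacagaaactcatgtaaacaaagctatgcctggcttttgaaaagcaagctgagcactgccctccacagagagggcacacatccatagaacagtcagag
In the Mtx2 window the reverse complement of TGATGAAA lay beside the center and an AP-1 site lay downstream of it. The Antxr2 window, placed by the WT -Leu center, held a single match, 4 bp from that center.

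Distal intergenic peaks made up 11.2% to 13.5% of a list. They were 593 of 4850 peaks in WT +Leu (12.2%, 95% Wilson interval 11.3 to 13.2) and 717 of 6374 in WT -Leu (11.2%, 10.5 to 12.0). In GCN2 KO MEFs they were 431 of 3566 peaks with leucine (12.1%, 11.1 to 13.2) and 362 of 2672 without it (13.5%, 12.3 to 14.9). Where 4 values are given below without a list name, they follow that order of the lists (the list order). Intervals here and below cover counting error only. Before repeats and CpG islands were removed, 987, 1162, 677 and 554 intergenic peaks lay beyond 50 kb in the list order. Repeats accounted for 394, 441, 246 and 192 of the peaks removed, and CpG islands for 4, all in WT -Leu.

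In the authors' annotation, by which they were chosen, the members' median distance to the nearest TSS was 118 kb with and 114 kb without leucine in WT, and 117 and 110 kb in GCN2 KO. The farthest lay 1255 kb away, in WT -Leu. The region was upstream of the TSS in 51.1%, 51.0%, 51.5% and 49.7% of members, so they were found on both sides of it. The nearest gene coded for protein in 76.9% to 78.7% of members. The last members inside the distance limit were near Mapk8 (50088 bp, score 25), BB123696 (50097 bp, score 30) and Ebf2 (50192 bp, score 30). Just outside it lay peaks near Dhrs4 (49974 bp, score 15), Alx4 (49973 bp, score 17) and 9530059O14Rik (49904 bp, score 28).

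The label "intergenic" depended on the annotation the authors used. In RefSeq GRCm38.p6, which holds many noncoding and predicted genes, only 192 WT +Leu members (32.4%), 234 WT -Leu members (32.6%), 133 GCN2 KO +Leu members (30.9%) and 112 GCN2 KO -Leu members (31.0%) had no gene start of any kind within 50 kb, and the median distance to the nearest start was 26.9 to 28.7 kb. Start sites of protein-coding genes were more than 50 kb away for 568 of 593, 669 of 717, 414 of 430 and 348 of 361 members on assembled chromosomes. The center lay inside a gene of GENCODE vM21 for 19.2%, 20.6%, 16.5% and 19.7% of members. In most of these cases the gene was a long noncoding RNA or similar transcript, as for 78 of the 148 in WT -Leu.

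Most members were weak in every list, and the lists differed in a small strong part. The score, a whole number that the authors deposited for each peak without stating its scale and without normalization between libraries, had a median over members of 29 in the GCN2 KO list with leucine and of 30 in the other lists. The highest member score was 234 with leucine and 1407 without it in WT, and 81 and 76 in GCN2 KO. Strong members, with a score of at least 100, numbered 11 in WT +Leu (1.85%), 91 in WT -Leu (12.7%) and 0 in GCN2 KO. Among all other peaks of the lists the share was 1.86%, 9.46%, 1.02% and 0.563% in the list order. A count of 0 allows a share of up to 0.696% of the 431 GCN2 KO +Leu members and 0.829% of the 362 GCN2 KO -Leu members. The latter limit lay above the 0.563% of the other GCN2 KO -Leu peaks. Sequencing depth is not given in the lists and can move a score, so a difference in score between libraries cannot be told apart from one in depth.

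**Figure D1:**
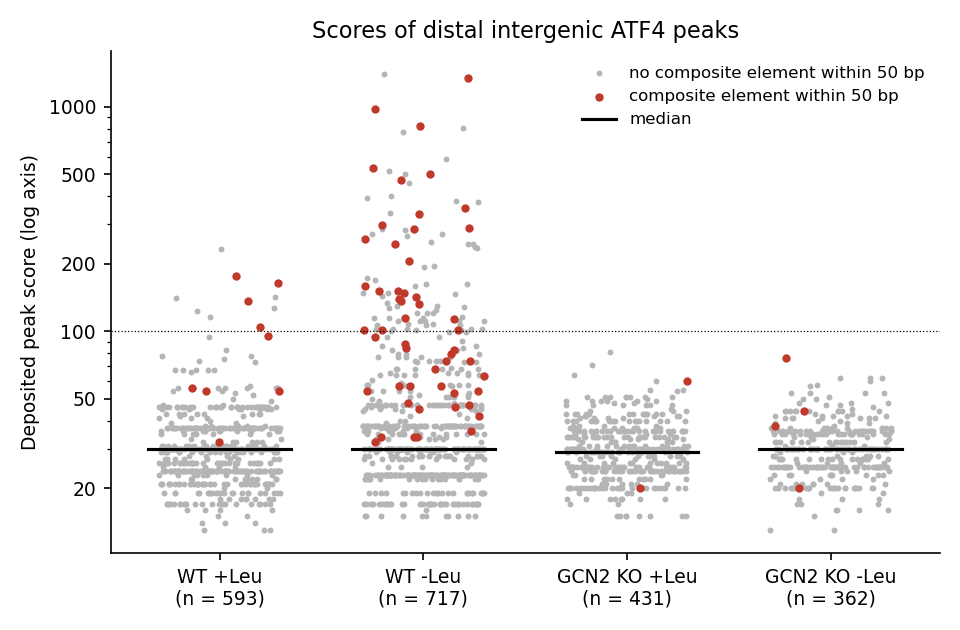
Deposited score (log axis) of every distal intergenic peak in the 4 lists. Each point is 1 peak, red where the composite element lies within 50 bp of the center, black bars are medians and the dotted line is a score of 100. The medians lie at 29 or 30 in all lists, and among these distal intergenic peaks only those of WT lie above the dotted line.

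The number of members followed the leucine state in opposite directions in the genotypes. WT MEFs had 717 members without leucine and 593 with it, a ratio of 1.21 (1.08 to 1.35), and GCN2 KO MEFs had 362 and 431, a ratio of 0.840 (0.730 to 0.966). All other peaks of the same lists gave ratios of 1.33 (1.28 to 1.38) in WT and 0.737 (0.698 to 0.778) in GCN2 KO, so the members moved in the same direction as the rest of each list. The WT ratio grew with the score. It was 1.51 (1.30 to 1.74) for members scoring 30 or more, 4.09 (2.94 to 5.70) for 50 or more and 8.27 (4.47 to 15.3) for 100 or more. In GCN2 KO it was 0.963 (0.795 to 1.17) at 30 or more and 0.824 (0.412 to 1.65) at 50 or more. Among all other peaks, 535 scored 100 or more in WT -Leu and 79 in WT +Leu. The excess of strong peaks without leucine was thus found across the WT lists and was not particular to the members. When the 2672 strongest peaks of each list were taken, the ratios were 1.03 (0.885 to 1.20) in WT and 1.10 (0.948 to 1.28) in GCN2 KO, and both intervals held 1. This setting kept the whole GCN2 KO -Leu list, down to a score of 13. The lowest scores kept were 28 in WT +Leu, 35 in WT -Leu and 24 in GCN2 KO +Leu. With lists of equal length, such a ratio is that of the members' shares.

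The composite element was more frequent at WT -Leu members than at those of the other lists. TGATGCAA, read on either strand and lying wholly within 50 bp of the center, was found in 52 of 717 WT -Leu members (7.25%, 5.57 to 9.39). It was found in 9 of 593 WT +Leu members (1.52%, 0.800 to 2.86), 2 of 430 GCN2 KO +Leu members (0.465%, 0.128 to 1.68) and 4 of 361 GCN2 KO -Leu members (1.11%, 0.432 to 2.81) on assembled chromosomes. Equally wide windows placed 1 kb away from the members on both sides held it in 0.139% in WT -Leu and 0.169% in WT +Leu, and in 0.233% and 0% in GCN2 KO with and without leucine. The WT -Leu and WT +Leu intervals at the centers lay above those of their neighboring windows. Those of both GCN2 KO lists overlapped, but rested on only 2 and 4 members with the element. All other peaks of the lists had it in 6.91% in WT -Leu and 2.87% in WT +Leu, and in 1.15% and 1.09% in GCN2 KO with and without leucine. The intervals of these shares lay above those of their own neighboring windows in all 4 lists, with 0.192% and 0.283% in the GCN2 KO windows. The difference between members and other peaks was 0.344 points in WT -Leu (Newcombe 95% interval -1.47 to 2.57), and the intervals of all 4 lists held 0, so the higher share in WT -Leu was a feature of the whole list. Members with the element numbered 5.78 times as many without leucine as with it in WT (2.89 to 11.6), whereas those lacking it numbered 1.14 times as many (1.02 to 1.27). Among all other WT peaks, 390 held the element without leucine and 122 with it, so the direction was the same across the lists.

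With any base at position 6 (TGATGNAA, which includes TGATGCAA), the share rose to 12.3% of WT members without leucine and 3.37% with it, against 1.60% and 1.77% in the neighboring windows. In GCN2 KO it was 2.49% without leucine and 1.40% with it, against 0.831% and 1.98%. In the whole 301-base windows of WT -Leu members there were 72 matches to TGATGCAA, 37 to TGATGAAA, 30 to TGATGTAA and 15 to TGATGGAA. The cytosine form was centered on the peaks, with 35 of its 72 matches (48.6%) within 25 bp of the center. In WT +Leu members 8 of 23 matches (34.8%) lay as near.

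**Figure D2:**
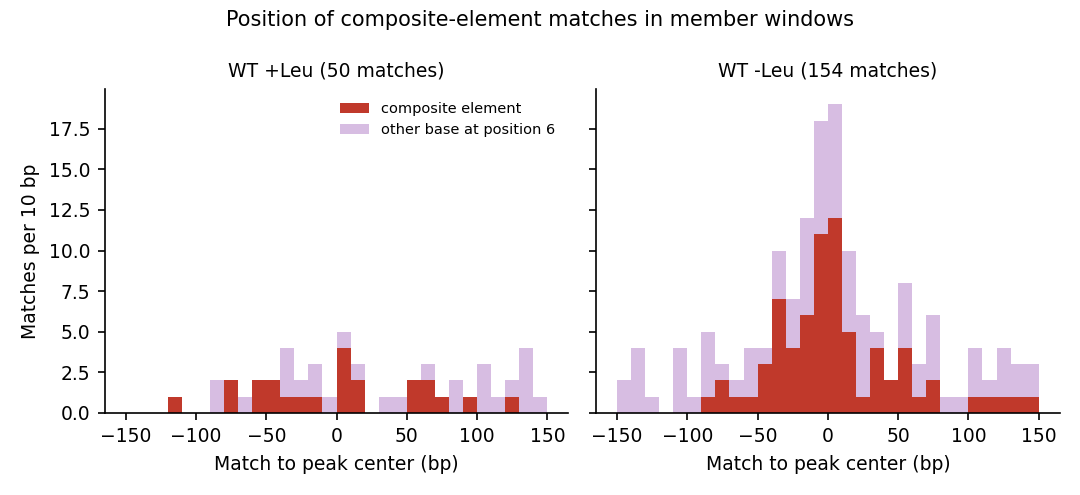
Number of matches per 10 bp against the distance of the match from the peak center, for WT +Leu (50 matches) and WT -Leu members (154 matches). Red is the composite element and purple the same letters with another base at position 6. The WT -Leu matches are concentrated at the center and the WT +Leu matches are fewer and spread out.

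In the WT lists the share of members with the element rose with the score. Among WT -Leu members it was found in 0 of 270 with a score under 30, which allows a share of up to 1.11%. It was found in 10 of 271 with a score of 30 to 49 (3.69%, 2.02 to 6.66), 15 of 85 with 50 to 99 (17.6%, 11.0 to 27.1) and 27 of 91 with 100 or more (29.7%, 21.3 to 39.7). TGATGNAA was found in 46 of those 91 (50.5%, 40.5 to 60.6). WT +Leu members had the element in 0 of 296, 1 of 254, 4 of 32 and 4 of 11 over the same classes, so the classes of 50 or more rested on few peaks. In GCN2 KO it was found in 1 of 217, 0 of 196 and 1 of 17 members with leucine and in 1 of 156, 2 of 191 and 1 of 14 without it over the first 3 classes, too few to show a trend. Within each score class the intervals of the WT lists overlapped. The share of WT -Leu members with the element was 6.09% at 50 to 100 kb from the TSS, 7.14% at 100 to 250 kb, 10.9% at 250 to 500 kb and 9.09% beyond 500 kb, and these intervals overlapped.

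**Figure D3:**
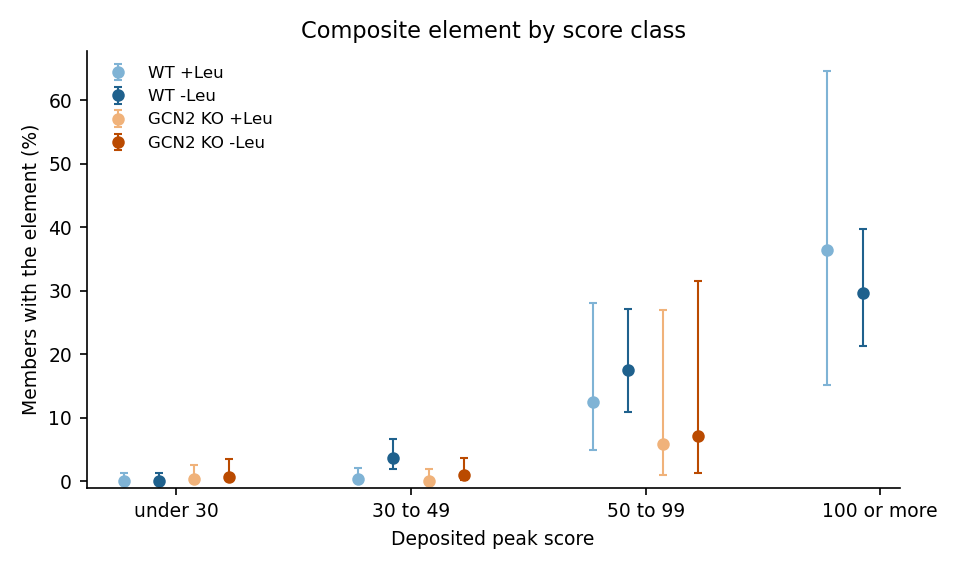
Share of members with the composite element within 50 bp of the center (percent) by score class, with 95% Wilson intervals as bars and one color for each list. No GCN2 KO member scored 100 or more. In WT -Leu the share climbs from 0% under a score of 30 to 29.7% at 100 or more.

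The other motifs were compared with the neighboring windows in the same way. TGANTCA, the loose AP-1 form, allows any base in the middle, so its counts are not of AP-1 sites alone. It was found in 4.55% of WT members with leucine and 4.74% without it, beside 3.20% and 3.70% in the neighboring windows. In GCN2 KO it was found in 2.79% and 3.05%, beside 2.56% and 3.19%. The intervals of members and neighboring windows overlapped in every list. In WT +Leu the members had it more often than all other peaks of the list, by 1.94 points (0.439 to 3.98). The difference was 0.366 points in WT -Leu (-1.08 to 2.25), 0.546 in GCN2 KO +Leu (-0.776 to 2.62) and 0.479 in GCN2 KO -Leu (-1.05 to 2.87), and these intervals held 0. Over the score classes it lay in 13 of 296, 9 of 254, 0 of 32 and 5 of 11 WT +Leu members, with no steady rise. The share of WT +Leu members was 45.5% (21.3 to 72.0) at 100 or more, beside 4.39% (2.58 to 7.37) under 30. In WT -Leu it lay in 9 of 270, 6 of 271, 8 of 85 and 11 of 91. There the share was 12.1% (6.89 to 20.4) at 100 or more, beside 3.33% (1.76 to 6.21) under 30. In both WT lists the intervals of these classes did not overlap, and the strong WT +Leu class held only 11 peaks. The cAMP response element TGACGTCA was found in no WT or GCN2 KO -Leu member, which allows up to 0.418% in WT -Leu. In GCN2 KO +Leu it was found in 2 of 430 members (0.465%), the same share as in the neighboring windows. This was 0.465 points above all other peaks of that list (0.106 to 1.68). The C/EBP palindrome TTGCGCAA was found in no member of any list. The TEAD site ACATTCC was found in 1.63% to 2.22% of members, beside 0.814% to 1.69% of neighboring windows, and the RUNX site TGTGGTT in 1.11% to 2.56%, beside 1.80% to 2.79%. In GCN2 KO -Leu the TEAD share was 1.26 points above all other peaks (0.0649 to 3.38), and in the other lists the interval held 0. An interval was taken for every motif in every list, with no correction for their number. A single interval that leaves out 0 therefore carries little weight. Of the 91 strong WT -Leu members, 41 held neither TGATGNAA nor TGANTCA within 50 bp.

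Members were compared with intergenic peaks nearer to a TSS and with repeat-annotated peaks as far away, on assembled chromosomes. In WT -Leu the element was found in 7.25% of members and 7.91% of intergenic peaks within 50 kb, a difference of -0.661 points (-3.14 to 1.95), an interval that held 0. Repeat-annotated peaks beyond 50 kb had it in 2.95%, which was 4.30 points below the members (1.66 to 6.76). In WT +Leu the members had it in 1.52% and nearer intergenic peaks in 3.73%, a difference of -2.22 points (-3.98 to -0.457). Strong peaks were 12.7% of WT -Leu members and 11.2% of nearer intergenic peaks, a difference of 1.51 points whose interval held 0 (-1.55 to 4.71). They were 3.64% of repeat-annotated peaks, 9.06 points below the members (5.92 to 12.0), and 9.42% of all other peaks of the list, 3.27 points below (0.893 to 6.0). In GCN2 KO +Leu, where no member was strong, the difference was -0.542 points against nearer intergenic peaks (-1.58 to 0.413) and -0.962 against all other peaks (-1.37 to -0.0310).

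**Figure D4:**
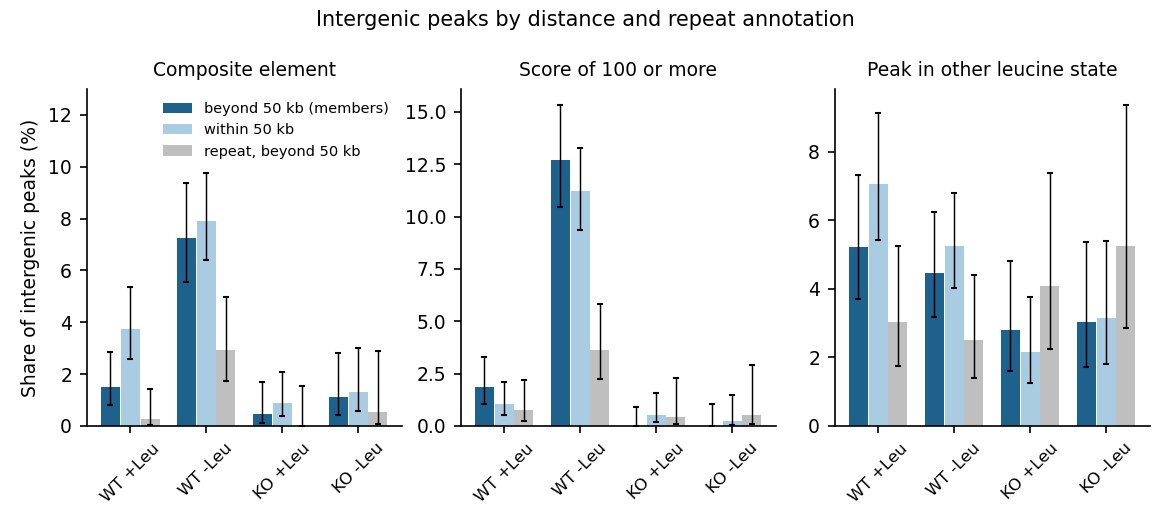
Share of intergenic peaks (percent) with the composite element, with a score of 100 or more, and with a peak of the other leucine state 300 bp or less away, for members, nearer intergenic peaks and repeat-annotated far peaks on assembled chromosomes. Bars start at 0 and lines are 95% Wilson intervals. In WT -Leu, members and nearer intergenic peaks are at 7.25% and 7.91% in the first panel, with overlapping intervals.

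Few members recurred between lists. A peak was said to recur where another list had a center within 300 bp of its own. Of 593 WT +Leu members, 31 (5.23%, 3.71 to 7.32) had a WT -Leu peak there, beside 6.35% of all WT +Leu peaks. In the other direction it was 32 of 717 WT -Leu members (4.46%, 3.18 to 6.23), beside 4.85% of all WT -Leu peaks. In GCN2 KO it was 13 of 431 +Leu members (3.02%, 1.77 to 5.09) beside 2.75% of all peaks, and 12 of 362 -Leu members (3.31%, 1.91 to 5.70) beside 3.59%. All 4 shares were near those of all peaks of the list, and each interval held the latter.

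In WT, strong members recurred more often than weaker ones. All 11 WT +Leu members scoring 100 or more had a WT -Leu peak, beside 96.7% of all WT +Leu peaks with such a score. Of the WT +Leu members scoring 30 to 99, 11 of 286 recurred (3.85%, 2.16 to 6.75), and of those under 30, 9 of 296 (3.04%, 1.61 to 5.68), so 20 of the 31 recurring members were not strong. Of the 91 WT -Leu members scoring 100 or more, 18 had a WT +Leu peak (19.8%, 12.9 to 29.1), beside 30.5% of all WT -Leu peaks with such a score. A GCN2 KO +Leu peak was listed at 3 and a GCN2 KO -Leu peak at 4, beside 10.5% and 6.39% of all such peaks. No peak in any other list was found at 72 of the 91 (79.1%), with scores up to 822, nor at 67.7% of all WT -Leu peaks scoring 100 or more. The element was found in 12 of the 18 with a WT +Leu peak and in 15 of the 73 without one. Joining members of all lists within 300 bp gave 2035 regions, of which 1979 were listed in 1 library, 47 in 2 libraries, 7 in 3 and 2 in all 4. The 56 in more than 1 library were 2.75% of the regions (2.13 to 3.56), beside 2.94% when all peaks were joined in the same way.

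The 33 regions with a peak in both WT lists showed how the same place scored in either state. The score was higher without leucine in 27, equal in 3 and lower in 3, and the median ratio of scores was 2.33 (range 0.407 to 8.12). In the 12 with TGATGCAA the -Leu score was higher in every case, by 1.90 to 8.12 times. Their median was 100 with leucine and 292 without it. The element was placed by the WT -Leu center, so these 12 were chosen through the list with the higher scores. Only 7 of them also held it within 50 bp of the WT +Leu center. In the 17 without TGATGNAA the median was 30 with leucine and 38 without it, and 11 were higher. When each score was expressed as a percentile of its own list, 15 of the 33 ranked higher without leucine and 18 ranked lower. The lists differ in length, and a strong region has little room to rise on this scale, as that near Mtx2 with percentiles of 99.5 and 99.8.

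**Figure D5:**
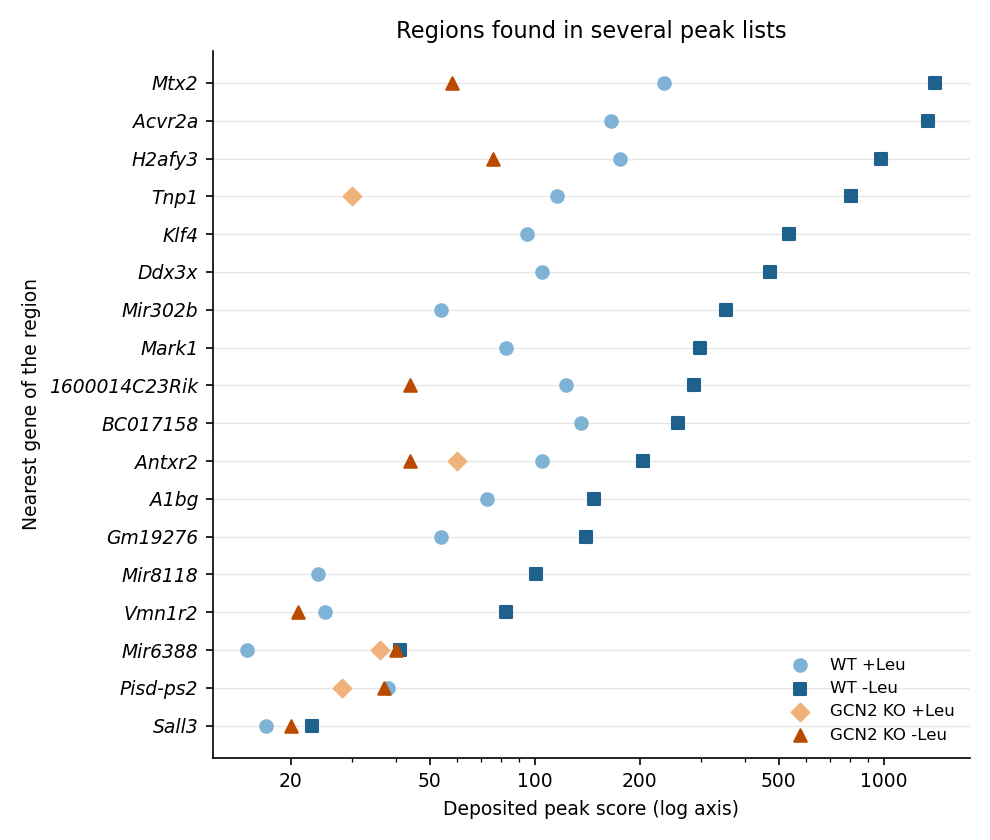
Score (log axis) in each list of 18 regions, named by the nearest gene. They were listed in 3 or more libraries, or in both WT libraries with the composite element within 50 bp of the WT -Leu center. A missing symbol means that no peak was listed there. In 14 regions the WT -Leu score is above 100.

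The strongest regions were as follows, with the genome positions in mm10. The region near Mtx2, which encodes a mitochondrial outer membrane protein next to the Hoxd cluster of developmental regulators, lay at chr2:74965555-74965855, 140 kb from the TSS. It scored 234 in WT +Leu, 1407 in WT -Leu and 58 in GCN2 KO -Leu, and was not listed in GCN2 KO +Leu. These placed it 26th, 11th and 65th in their lists, so it stood near the top wherever it was listed. The region near Acvr2a, the gene of an activin receptor, lay at chr2:48519948-48520248, 294 kb upstream, within 3697 kb without a protein-coding gene between Zeb2 and Acvr2a. It scored 165 in WT +Leu and 1340 in WT -Leu, and no peak was listed in either GCN2 KO library. The regions near Tnp1 (chr1:72963561-72963861) and Nfib (chr4:82288108-82288408) scored 116 and 141 in WT +Leu. Without leucine in WT they scored 805 and 518. Tnp1, a gene of sperm chromatin, was 51.4 kb from its region on one side, and Igfbp5, which encodes a binding protein of insulin-like growth factors, was 88.8 kb away on the other. The Tnp1 region also scored 30 in GCN2 KO +Leu. Nfib encodes a transcription factor of the nuclear factor I family. Its region lay 218 kb downstream of the TSS but only 1.92 kb beyond the 3′ end of the gene in RefSeq, so it was far from the start of Nfib and not from the gene.

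Regions on both sides of Myc, the growth-regulating transcription factor, were among the 12 with the element and a peak in both WT lists. The region near A1bg (chr15:61308909-61309209) scored 73 in WT +Leu and 148 in WT -Leu and lay 676 kb from Myc, with no protein-coding gene between. Its element lay 31 bp from the WT -Leu center and 53 bp from the WT +Leu center, beyond the 50 bp limit. The region near H2afy3 (chr15:62569460-62569760) lay 579 kb beyond Myc on the other side and scored 176 in WT +Leu, 981 in WT -Leu and 76 in GCN2 KO -Leu, where it was the strongest member. Both centers lay inside GENCODE long intergenic noncoding RNA genes, Gm29904 and Gm41333.

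The region near Klf4, a transcription factor used in reprogramming, lay at chr4:55730352-55730652, 198 kb upstream, and scored 95 in WT +Leu and 537 in WT -Leu. The region near Ddx3x, an RNA helicase gene, lay at chrX:13347384-13347684 and scored 105 and 471. The region near the microRNA gene Mir302b lay at chr3:127408973-127409273 and scored 54 and 353. In GENCODE its center lay inside the protein-coding gene Ank2, although the authors' annotation placed it between genes. The regions near Mark1 and BC017158 scored 83 and 136 with leucine and 298 and 258 without it. In RefSeq, the BC017158 region lay 16.1 kb from the nearer end of Rgs10. None of these 5 regions was listed in GCN2 KO. The regions near Gm19276 and Mir8118 scored 54 and 24 with leucine and 140 and 101 without it, and were likewise not listed in GCN2 KO. The region near 1600014C23Rik (chr17:45873501-45873801) lay 143 kb from Vegfa, the gene of a vascular growth factor induced by ATF4. It scored 123 in WT +Leu, 286 in WT -Leu and 44 in GCN2 KO -Leu. The Antxr2 region (chr5:97834776-97835076) was the only one with the element that was listed in all libraries, at 105, 205, 60 and 44 in the list order, and lay 49.8 kb beyond the 3′ end of Antxr2 in RefSeq. Its element lay wholly within 50 bp of the WT -Leu and GCN2 KO +Leu centers, but not of the WT +Leu and GCN2 KO -Leu centers. The region near Gm1968 (chr16:29894539-29894839), between Opa1 and the Notch target Hes1, went the other way, with 143 in WT +Leu and 108 in WT -Leu, and held no TGATGNAA. The region near Gm13498 (chr2:50814101-50814401) scored 822 in WT -Leu and was not listed elsewhere.

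The Mtx2, Tnp1, Nfib and Gm1968 regions recurred without TGATGCAA, the first 3 with another form of TGATGNAA. The regions listed in 3 or more libraries with no form of TGATGNAA were weaker. The region near Mir6388 scored 15, 41, 36 and 40 in the list order. The one near Pisd-ps2 scored 28 and 37 in GCN2 KO with and without leucine and 38 in WT with leucine, and was not listed in WT -Leu. The one near Sall3, a developmental transcription factor gene, scored 17, 23 and 20 in WT +Leu, WT -Leu and GCN2 KO -Leu. The one near the vomeronasal receptor gene Vmn1r2 scored 25, 83 and 21 in the same lists. The Vmn1r2 and Pisd-ps2 regions lay 0.174 kb and 30.9 kb from runs of 1000 or more unread bases in the genome, and the part of this in their recurrence was not tested.

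The strongest GCN2 KO members were listed mostly once. In GCN2 KO +Leu they were near Unc5cl (81), Zfp462 (71), Ccdc185 (64), Antxr2 (60) and Slc4a3 (60), and only those near Antxr2 and Unc5cl had a GCN2 KO -Leu peak, at 44 and 27. In GCN2 KO -Leu they were near H2afy3 (76), Qk (62), Zdhhc21 (62), Satb1 (62) and Trpm1 (60), of which only the H2afy3 region was listed in WT. The regions near Unc5cl, Zfp462, Ccdc185, Slc4a3, Qk, Zdhhc21, Satb1 and Trpm1 held no TGATGNAA anywhere in the window.

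Members were counted by nearest gene over 5 gene lists, and each share is given beside that of all other peaks of the same list, with no test. A list of 65 genes of the ATF4 program was nearest to 3 WT +Leu members (0.506%, beside 1.90% of other peaks) and 8 WT -Leu members (1.12%, beside 1.52%). In GCN2 KO it was nearest to 1 member with leucine (0.232%, beside 1.02%) and 1 without it (0.276%, beside 0.996%). None of these 13 members reached a score of 50 or held TGATGCAA. The highest was the WT -Leu member near Slc7a11, the cystine transporter gene, with a score of 47 at 118 kb. Next came members near Arl14ep (41) in GCN2 KO -Leu and Larp1 (36, at 53.9 kb) in WT -Leu. Members near Stc2 (24) and Vegfa (26) in WT +Leu were weaker still.

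Transcription factor genes of development, a list of 96, were nearest to 25 WT +Leu members (4.22%, beside 1.13% of other peaks) and 31 WT -Leu members (4.32%, beside 0.707%). In GCN2 KO they were nearest to 17 members with leucine (3.94%, beside 0.702%) and 17 without it (4.70%, beside 0.563%). The shares were not adjusted for the length of intergenic DNA around each gene. The median score of these members was 34 in the GCN2 KO list with leucine and 30 in the other lists, beside 29 and 30 for all members. Beyond Klf4 and Nfib, the strongest in WT -Leu were near Irx1 (142, with TGATGCAA) and Klf12 (111). In GCN2 KO the strongest were near Irx3 (49) and Klf12 (49) with leucine and near Satb1 (62) and Meis1 (57) without it.

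The bZIP factor list of 51 genes was nearest to 8 WT +Leu members (1.35%, beside 0.540%), 6 WT -Leu members (0.837%, beside 0.389%), 6 GCN2 KO +Leu members (1.39%, beside 0.351%) and 3 GCN2 KO -Leu members (0.829%, beside 0.563%). They included regions near Bach1 (43) and Nfe2l2 (35) in WT +Leu, the latter the gene of the oxidative stress regulator NRF2. The fibroblast matrix and adhesion list of 63 genes was nearest to 2 WT +Leu members (0.337%, beside 0.329%), 6 WT -Leu members (0.837%, beside 0.354%), 1 GCN2 KO +Leu member (0.232%, beside 0.191%) and 1 GCN2 KO -Leu member (0.276%, beside 0.216%). The strongest of these were WT -Leu members near Tnc, the tenascin C gene (111), and Thy1, a fibroblast surface marker (65). The list of 80 neuronal adhesion and axon guidance genes was nearest to 5, 6, 5 and 3 members, or 0.829% to 1.16% of a list, beside 0.734% to 1.26% of other peaks.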

How the data were processed

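ATF4 ChIP-seq was performed on primary MEFs with an anti-ATF4 antibody. Per the labels and the submitters' processing notes, the authors aligned the reads to mm10 with BWA 0.7.12, called peaks with MACS2 2.1.0 at a false discovery rate of 0.05 and annotated the summit ±150 bp with HOMER 4.7. Every peak has a score, deposited by the authors, whose scale is not given in the sources used here (13 or more, whole numbers, not normalized between libraries), a distance to the TSS in bp, and GC and CpG content as a fraction. The 4 lists carry no depth.

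Members were the peaks annotated as intergenic with a distance above 50 kb whose detailed annotation names no repeat or CpG island. The members, gene lists and motifs were chosen with earlier results of these data known. The named regions were the 5 highest-scoring members of each list. Each member with a peak 300 bp or less away in at least 2 of the other 3 lists was named as well. So was each member common to both WT lists with TGATGCAA within 50 bp of its WT -Leu center. Examples from gene lists were taken from the highest-scoring members of each peak list, and not every one of these is named. Motifs were searched on both strands in the RefSeq GRCm38.p6 genome, whose GC content equalled the listed value for all peaks on assembled chromosomes (4839, 6362, 3549 and 2658). Peaks on other contigs, 2 members among them, were left out of motif counts. Shares have 95% Wilson intervals, ratios of counts the same interval turned into a ratio, and differences of shares Newcombe intervals. Recovery of planted partners and motifs was checked on simulated lists. The alternatives were a score of 30 or more, a distance above 100 kb, repeats and CpG islands kept, no RefSeq gene start within 50 kb, the 2672 strongest peaks of each list, partners within 100 or 1000 bp or counted from the -Leu list, a motif window of 150 bp and TGATGNAA. Work was done in Python 3.11.15 (pysam 0.24.0, pandas 2.3.3, numpy 2.4.6, matplotlib 3.10.9, scipy 1.17.1) and samtools 1.23.1. The 2 input libraries were not analysed here.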

Additional observations from a re-analysis of the deposited data

Results flagged for a closer look

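The ratio of the number of distal intergenic peaks without leucine to that with leucine was 1.21 in WT and 0.840 in GCN2 KO MEFs. It was singled out because the genotypes moved in opposite directions. With 1 library per condition the difference between the genotypes was not tested, and the depth of the libraries is not given.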

How the results depend on the processing

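Of 68 recomputed values, 47 stayed within the 95% interval (for medians, the quartiles) of the value reported, 20 left it and 1 changed direction. The share of members in WT with and without leucine, then in GCN2 KO with and without it, was 7.22%, 6.35%, 6.90% and 7.60% at a distance above 100 kb. With repeats and CpG islands kept it was 20.4%, 18.2%, 19.0% and 20.7%, and with no RefSeq gene start within 50 kb 3.96%, 3.67%, 3.73% and 4.19%. These settings redefine the members, so the shares change by construction. The WT ratio of member counts was 1.51 at a score of 30 or more and 1.03 with the same number of strongest peaks per list, where the GCN2 KO ratio turned from 0.840 to 1.10. The latter setting kept the whole GCN2 KO -Leu list and trimmed the other lists. The share with TGATGCAA at a score of 30 or more was 3.03% in WT +Leu and 11.6% in WT -Leu, which leaves out the class with no element. With the 2672 strongest peaks it was 14.5% in WT -Leu. A window of 150 bp gave 3.54% in WT +Leu, and TGATGNAA gave 3.37% in WT +Leu and 12.3% in WT -Leu. The share of WT members with a partner ranged from 4.38% (100 bp) to 7.07% (score of 30 or more), and that of GCN2 KO members from 1.86% to 3.71%. WT -Leu had the highest share of members with TGATGCAA of the 4 lists under every alternative run. No paired analysis was possible because each condition has a single pooled library. Counts, scores and their ratios cannot be told apart from differences in depth between libraries.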

Other observations

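Chromosome X, which makes up 6.28% of the length of the assembled chromosomes, held 7 of the members (0.333%) and 0.294% of the other peaks, and chromosome Y held no member. Chromosomes 4 and 8 had the most members per Mb, at 1.20 and 1.26. The members on X included the Ddx3x region, which scored 105 in WT +Leu and 471 in WT -Leu.

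Members were clustered at the start of chromosome 4. The nearest gene was Vmn1r2 for 9 WT -Leu members within 34 kb, with scores of 16 to 83, for 5 WT +Leu members within 35.3 kb, with scores of 16 to 47, and for 6 GCN2 KO +Leu members within 33.7 kb, with scores of 20 to 40. Runs of 1000 or more unread bases lay within 100 kb of 14 and 15 WT members with and without leucine, and of 17 and 16 in GCN2 KO.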
